A study of Mus musculus with 12 samples.

Results

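The immediate early genes examined here were Fos, Fosb, Fosl1 and Fosl2 of the Fos family, Jun and Junb of the Jun family, Egr1, Egr2 and Egr3 of the early growth response family, and Ier2. These 10 genes were matched by symbol, without a threshold on a measured value, although they were picked with earlier results of these data known. They were found through their Ensembl identifiers among the 55487 genes listed in the count table. All 10 passed the filter on low counts and were among the 14175 genes tested. The RNA came from C2C12 cells, an established mouse myoblast line whose cells fuse into myotubes with many nuclei once serum is lowered. All cultures were differentiated for 5 days with 2% horse serum. Control myotubes then received 4% horse serum for 24 h (6 libraries, numbered 1 to 6). Treated myotubes received 4% STEM, the secreted products of human embryonic stem cells that were partially differentiated, for the same 24 h (6 libraries, numbered 7 to 12). STEM took the place of horse serum, so the addition of STEM and the removal of horse serum cannot be told apart. The sources used here do not say whether the libraries came from separate experiments, so p-values measure the spread between these libraries, which may be technical. Total counts were 13285472 to 18254882 per horse serum library and 14909485 to 24536264 per STEM library.

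Immediate early genes are switched on within minutes of a signal such as serum, a growth factor or stress, without new protein synthesis, mostly through serum response factor with its Elk partners and through CREB. Fos and Jun proteins pair through leucine zippers to form the transcription factor AP-1, while Egr proteins bind GC-rich sites through zinc fingers. Their RNAs are short-lived, and a burst usually fades within hours. In muscle, Junb is known for the maintenance of fiber size and Egr3 for the formation of muscle spindles. The RNA here was collected after 24 h of treatment, so the values describe a late level and not a first burst.

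Sequence upstream of the gene start was read from RefSeq windows on build GRCm38.p6 for 6 of the 10 genes. These were Fos, Fosb, Fosl2, Jun, Junb and Egr2. The upstream sequence of the other genes was not searched, so nothing is said here of their sites. The 250 bases before each start were searched on both strands for an AP-1 site (TGANTCA), a CRE-like site (TGACNTCA), a CArG box (the site of serum response factor) and an Egr site (GCGNGGGCG). Of 32841 windows of this length, 6.75% held an AP-1 site, 7.49% a CRE-like site, 1.47% a CArG box and 4.7% an Egr site. Jun, Egr2 and Junb are shown because they were higher with STEM, and Fos because it did not pass the test. Capitals mark the matches, and no matches overlapped in these windows. The Jun window (chr4:95052223-95052472, minus strand) held the CRE-like site TGACATCA, which began 45 bases before the start. Egr2 has 5 listed starts. The window of the first held no match, that of the next held another CArG box (CCTTTTTTGG), and the other 3, which overlap, shared a single box. The window shown (chr10:67537619-67537868, plus strand) lies within the gene but in no annotated exon. Its CArG box, CCATATATGG, began 72 bases before the start. The Junb window (chr8:84978749-84978998, minus strand) and the Fos window (chr12:85473640-85473889, plus strand) held no match. Only exact matches to these patterns were counted, so a window without a match may still hold a site that departs from them. The serum response element for which Fos is known lies farther upstream than the Fos window reaches. An Egr site was found for Fosb, 50 bases before the start, and for Fosl2, 79 bases before it. The Fosl2 window is set by the RefSeq start and lies within the first exon of the GENCODE gene.
Jun: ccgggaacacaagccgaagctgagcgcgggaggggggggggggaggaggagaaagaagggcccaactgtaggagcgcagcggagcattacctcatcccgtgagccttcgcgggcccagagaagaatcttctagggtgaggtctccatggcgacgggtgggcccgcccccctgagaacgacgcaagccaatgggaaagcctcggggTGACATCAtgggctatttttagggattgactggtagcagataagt
Egr2: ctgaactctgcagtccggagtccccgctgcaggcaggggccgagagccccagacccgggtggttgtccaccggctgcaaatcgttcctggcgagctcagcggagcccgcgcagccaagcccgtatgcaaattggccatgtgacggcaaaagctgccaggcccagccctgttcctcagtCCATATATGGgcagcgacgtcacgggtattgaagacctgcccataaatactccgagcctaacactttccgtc
Junb: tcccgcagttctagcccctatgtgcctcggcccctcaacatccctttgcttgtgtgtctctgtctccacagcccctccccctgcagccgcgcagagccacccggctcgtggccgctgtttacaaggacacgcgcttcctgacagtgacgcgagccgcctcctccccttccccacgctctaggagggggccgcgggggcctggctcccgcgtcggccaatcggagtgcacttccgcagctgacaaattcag
Fos: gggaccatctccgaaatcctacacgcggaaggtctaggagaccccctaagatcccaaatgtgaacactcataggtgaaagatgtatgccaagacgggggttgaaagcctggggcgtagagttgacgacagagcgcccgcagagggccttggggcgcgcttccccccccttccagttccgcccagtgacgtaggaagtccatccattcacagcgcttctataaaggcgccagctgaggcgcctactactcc

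One control library stood apart for several of these genes. Levels are given as CPM, the counts of a gene per 1000000 counts of its library after TMM normalization. Horse serum library 6 was above all of its group's other 5 libraries for Junb, Egr1, Egr2, Egr3 and Ier2, which compares with 35.8% of all tested genes, and below each of them for Fos, Fosl1 and Jun, which compares with 33.1% of all tested genes. All 18 differentiated muscle markers, such as the giant sarcomere protein gene Ttn, were lower there than in the other horse serum libraries. Their summed level was 13794.9 CPM in library 6, 23811.9 to 26490.1 CPM in the other 5 and 20892.5 to 27719.8 CPM with STEM. All 11 heat shock genes were higher in library 6 than in the other 5. Their summed level was 2369.6 CPM there, 2025.9 to 2142.3 CPM in the other 5 and 2504.2 to 2739.0 CPM with STEM. The part of the muscle and heat shock genes in the results on the immediate early genes was not tested. The fold change of each of the 10 genes is therefore given with and without library 6.

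Of the 10 genes, 5 were higher with STEM at an adjusted p of 0.05 or less and 5 did not pass (quasi-likelihood test in edgeR, p-values adjusted by Benjamini-Hochberg over all tested genes). The genes that rose were Egr2, Egr1, Ier2, Jun and Junb. Lower calls numbered 0, also at an unadjusted p under 0.05 and with DESeq2 or limma-voom. Over all tested genes 36.4% were called, 18.9% higher and 17.4% lower. For the 10 genes the median log2 fold change was 0.39, against 0.01 over all tested genes. Without library 6 the same 5 genes were called, while 50.8% of all genes tested were called, 26.3% higher and 24.5% lower, and the medians were 0.43 and 0.01. In bulk RNA, a change in the number of expressing cells and a change in RNA per cell cannot be told apart.

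**Figure D1:**
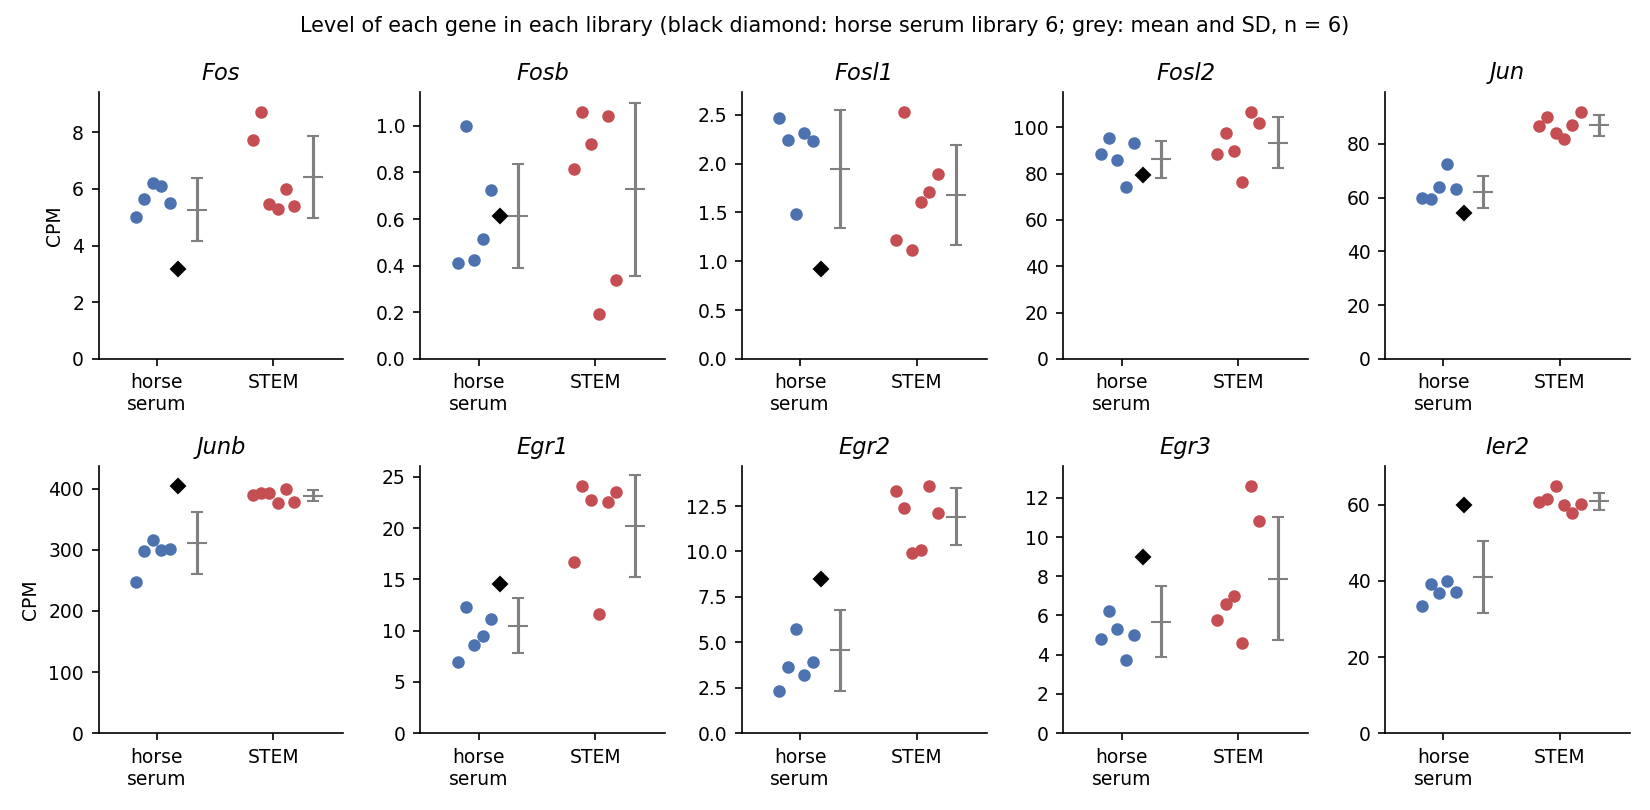
Level of each of the 10 genes in CPM (vertical axes) in the 6 horse serum and the 6 STEM libraries. Points are libraries, with horse serum library 6 as a black diamond, and grey bars give the mean ± SD (n = 6). The groups do not overlap for Jun and Egr2, and library 6 is the highest control for Junb, Egr1, Egr2, Egr3 and Ier2.

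Jun encodes the founding member of its family, which pairs with itself or with a Fos protein. Jun ranged from 54.3 to 72.3 CPM with horse serum (median 61.5) and from 81.6 to 91.9 CPM with STEM (median 86.6). All 6 STEM libraries were above all 6 controls, and library 6 was the lowest control. On the log2 scale Jun was higher by 0.48 (standard error 0.0602, adjusted p = 2.81e-05 in edgeR), or 1.4-fold (95% interval 1.28 to 1.53), and 0.45 without library 6. A two-sided exact permutation test of log2 CPM gave p = 0.00216, the smallest that 6 libraries against 6 allow. Every STEM library lay above every control for 2 of the 10 genes (Jun and Egr2) and for 8.68% of all tested genes. Jun lies on chromosome 4 at 95049034 to 95052222 (ENSMUSG00000052684), downstream of the CRE-like site shown above. The antisense gene Junos overlaps 7.28% of its exon length and had 17 to 53 counts per library, against 769 to 2121 for Jun.

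Junb encodes a Jun protein that is a weaker activator than Jun at many AP-1 sites. Junb ranged from 247.8 to 404.2 CPM with horse serum (median 300.5) and from 376.7 to 399.1 CPM with STEM (median 391.3). The highest control was library 6, which lay above all STEM libraries, whereas the other controls reached at most 316.5 CPM. Junb was higher by 0.32 on the log2 scale (standard error 0.0846, adjusted p = 0.00851 in edgeR), or 1.25-fold (95% interval 1.10 to 1.41), with p = 0.0152 in the exact permutation test. Without library 6 the groups did not overlap, and the log2 fold change was 0.41 (adjusted p = 2.06e-06 in edgeR). The log2 ratio of Jun to Junb within each library was -2.31 ± 0.31 with horse serum and -2.16 ± 0.07 with STEM (SD, n = 6), a difference of 0.15, or 0.04 without library 6, in which the ratio was -2.89. Junb lies on chromosome 8 at 84974484 to 84978718 (ENSMUSG00000052837). Prdx2, on the opposite strand, overlaps 7.52% of its exon length and had 8200 to 16038 counts per library. Whether the counting used strand is not given in the sources used here, so Junb may include or have lost reads of that stretch.

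Ier2, a gene that serum and growth factors induce rapidly, encodes a small nuclear protein. Ier2 ranged from 33.5 to 59.8 CPM with horse serum (median 38.1) and from 57.9 to 64.9 CPM with STEM (median 60.4). Library 6 was the only control within the STEM range, and the other controls were at 39.9 CPM or below. Ier2 was higher by 0.56 on the log2 scale (standard error 0.112, adjusted p = 0.00138 in edgeR), or 1.48-fold (95% interval 1.25 to 1.75), with p = 0.00649 in the exact permutation test. Without library 6 it was 0.71 (adjusted p = 2.14e-09 in edgeR). With that library left out, all STEM libraries lay above all controls for 4 of the 10 genes (Jun, Junb, Egr2 and Ier2) and for 16.8% of all tested genes. Ier2 lies on chromosome 8 at 84661331 to 84662852 (ENSMUSG00000053560).

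Egr2, known for its role in myelination and in hindbrain patterning, had the largest log2 fold change of the 10 genes. Egr2 ranged from 2.33 to 8.51 CPM with horse serum (median 3.78) and from 9.93 to 13.6 CPM with STEM (median 12.3). Each STEM library was above each control, and the nearest control was library 6, since the other controls reached at most 5.72 CPM. On the log2 scale Egr2 was higher by 1.37 (standard error 0.239, adjusted p = 0.000617 in edgeR), or 2.58-fold (95% interval 1.81 to 3.69), with p = 0.00216 in the exact permutation test. Without library 6 it was 1.67 (adjusted p = 3.81e-07 in edgeR), or 3.18-fold. These values rested on 34 to 327 counts per library. Egr2 lies on chromosome 10 at 67535475 to 67542188 (ENSMUSG00000037868), and the CArG box shown above lies within these bounds.

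Egr1, the family member most often used as a readout of ERK signaling, ranged from 6.92 to 14.5 CPM with horse serum (median 10.3) and from 11.6 to 24.1 CPM with STEM (median 22.6). STEM library 10 (11.6 CPM) was below horse serum libraries 2 and 6, and the other 5 STEM libraries were above all controls. Egr1 was thus higher by 0.94 on the log2 scale (standard error 0.198, adjusted p = 0.00243 in edgeR), or 1.91-fold (95% interval 1.42 to 2.57), with p = 0.00649 in the exact permutation test. Without library 6 it was 1.06 (adjusted p = 0.0017 in edgeR). Egr1 lies on chromosome 18 at 34859823 to 34864984 (ENSMUSG00000038418).

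Egr3 ranged from 3.73 to 8.97 CPM with horse serum (median 5.15) and from 4.58 to 12.6 CPM with STEM (median 6.78). STEM libraries 11 (12.6 CPM) and 12 (10.8 CPM) were above all controls, and the other 4 lay within the control range. The log2 fold change was 0.46 (95% interval -0.10 to 1.02, adjusted p = 0.188 in edgeR), which did not pass the test. Without library 6 it was 0.65 (95% interval 0.06 to 1.24, adjusted p = 0.0634 in edgeR), and limma-voom with sample quality weights gave 0.50 with an adjusted p of 0.0486. Egr3 lies on chromosome 14 at 70077203 to 70082614 (ENSMUSG00000033730).

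The ratios of Egr2 to its relatives within each library are given as a description, since these pairs, like those of Jun with Junb and Fos, were chosen after the values were seen. The log2 ratio of Egr2 to Egr3 was -0.38 ± 0.42 with horse serum and 0.67 ± 0.48 with STEM (SD, n = 6), a difference of 1.05, or 1.11 without library 6. The log2 ratio of Egr2 to Egr1 was -1.26 ± 0.47 and -0.72 ± 0.39 (SD, n = 6), a difference of 0.55, or 0.65 without library 6.

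**Figure D2:**
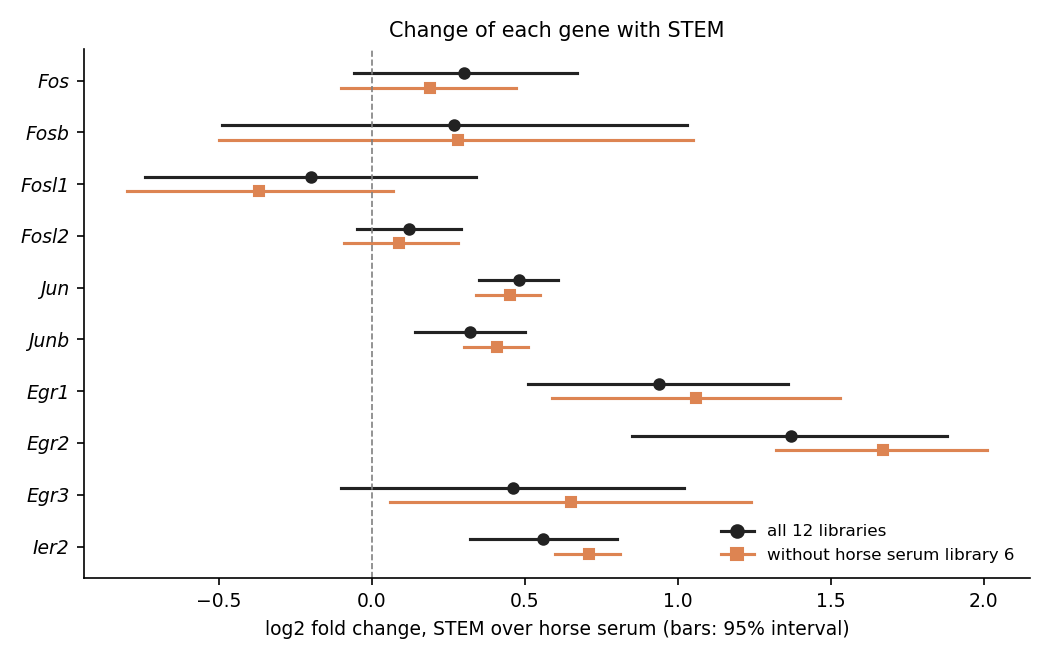
Log2 fold change of each gene, STEM over horse serum (horizontal axis), with its 95% interval, from all 12 libraries and without horse serum library 6. The intervals of Jun, Junb, Egr1, Egr2 and Ier2 lie above 0 with and without that library, and those of the 4 Fos family genes include 0. The interval of Egr3 includes 0 with all libraries and lies above 0 without library 6.

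The Fos family genes did not pass the test. Fos, the classical partner of Jun, ranged from 3.18 to 6.21 CPM with horse serum (median 5.57) and from 5.29 to 8.72 CPM with STEM (median 5.73). STEM libraries 7 (7.71 CPM) and 8 (8.72 CPM) were above all controls, and the other 4 lay within the control range. On the log2 scale the difference was 0.30 (standard error 0.171, adjusted p = 0.181 in edgeR), with a 95% interval of 0.96-fold to 1.59-fold, and 0.19 without library 6. These values rested on 62 to 189 counts per library. The log2 ratio of Jun to Fos was 3.55 ± 0.26 with horse serum and 3.76 ± 0.28 with STEM (SD, n = 6), a difference of 0.20, or 0.30 without library 6. Fos lies on chromosome 12 at 85473890 to 85477273 (ENSMUSG00000021250).

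Fosl2 encodes Fra-2, a Fos protein without the strong activation domain of Fos. Fosl2 ranged from 74.4 to 95.5 CPM with horse serum (median 87.2) and from 76.3 to 106.7 CPM with STEM (median 93.8), and the groups overlapped broadly. The log2 fold change was 0.12 (adjusted p = 0.273 in edgeR), and its 95% interval of 0.96-fold to 1.22-fold was the narrowest among the genes that did not pass. Without library 6 the value was 0.09. Fosl1, which encodes Fra-1, ranged from 0.922 to 2.47 CPM (median 2.24) and from 1.12 to 2.53 CPM (median 1.66), with a log2 fold change of -0.20 (95% interval -0.74 to 0.34, adjusted p = 0.56 in edgeR), and -0.37 without library 6 (adjusted p = 0.151 in edgeR). Ccdc85b, on the opposite strand, overlaps 57.2% of the exon length of Fosl1, so its level is uncertain. Fosb, with 3 to 20 counts per library, had a log2 fold change of 0.27 (95% interval -0.49 to 1.03, adjusted p = 0.585 in edgeR), and 0.28 without library 6. The interval of Fosb reached 2.04-fold, so a change of that size could not be told from no change. Fosl2 lies on chromosome 5 at 32135801 to 32157842, Fosl1 on chromosome 19 at 5447547 to 5455946 and Fosb on chromosome 7 at 19302696 to 19310051.

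Levels of different genes were compared per kilobase of exon (RPKM). With horse serum the order of mean levels was Junb (135.3 RPKM), Ier2 (27.0), Jun (19.5), Fosl2 (8.90), Egr1 (2.34), Fos (2.24), Egr2 (1.34), Egr3 (1.29), Fosl1 (0.956) and Fosb (0.0986). The library ranges of Ier2 and Jun overlapped, as did those of all neighbors from Egr1 to Fosl1, so their order is not set by these data, except that Ier2 was above Jun in all 6 libraries. With STEM the order was the same except that Egr2 (3.51 ± 0.46 RPKM, SD, n = 6) stood above Fos (2.73 ± 0.612), in 5 of 6 libraries and with overlapping ranges. Jun and Junb together had 154.8 ± 21.5 RPKM with horse serum and 196.0 ± 4.11 RPKM with STEM, of which Junb held 87.2% and 86.1%. Library 6 had 192.7 RPKM, within the STEM range of 189.3 to 200.7 RPKM, and the other controls had 126.5 to 157.6 RPKM. The 4 Fos family genes together had 12.2 ± 1.24 and 13.3 ± 1.55 RPKM, of which Fosl2 held 73.2% and 72.5%. The 3 Egr genes together had 4.97 ± 1.54 and 9.80 ± 1.89 RPKM, with 7.77 RPKM in library 6, 3.32 to 5.22 RPKM in the other controls and 6.61 to 11.9 RPKM with STEM. Within that sum Egr2 held 26.1% ± 6.09 with horse serum and 36.6% ± 6.29 with STEM, and Egr3 held 26.1% ± 3.80 and 17.8% ± 4.13.

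**Figure D3:**
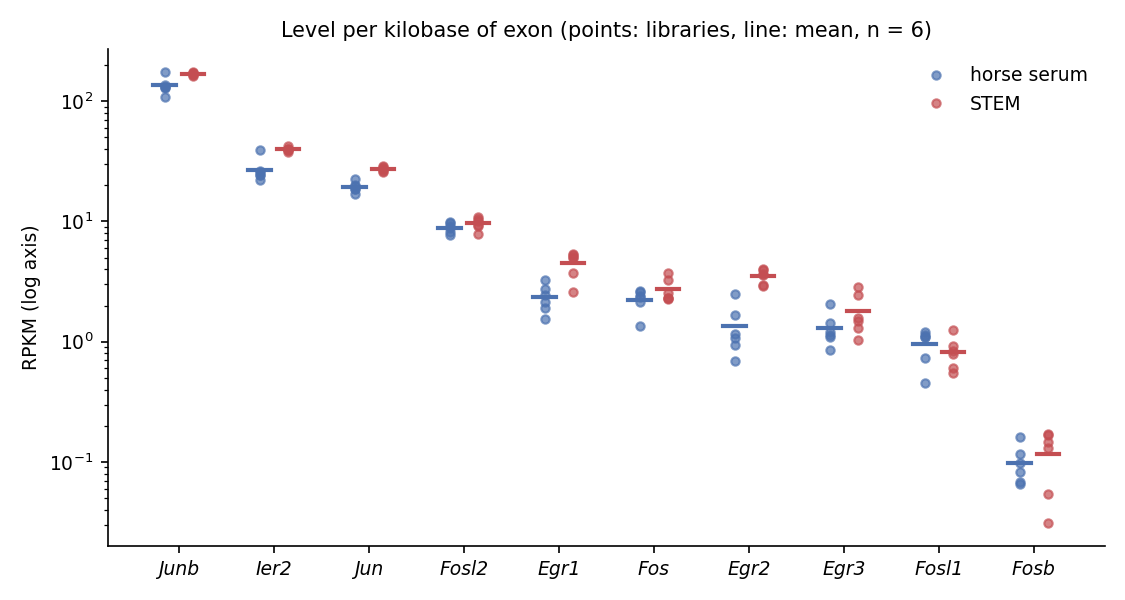
RPKM of each gene on a log axis, ordered by the mean with horse serum, with points for libraries and lines for group means (n = 6). Junb is the most abundant, at 135.3 RPKM with horse serum and 168.8 RPKM with STEM, and Fosb the least abundant in both groups.

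The STEM libraries were even for some genes and uneven for others. Relative to the mean of horse serum libraries 1 to 5, on the log2 scale, Jun was higher by 0.36 to 0.53, Junb by 0.37 to 0.45 and Ier2 by 0.64 to 0.80 in every STEM library. Egr1 was higher by 0.29 in STEM library 10 and by 0.81 to 1.33 in the other 5. Fos was at 0.43 and 0.61 in STEM libraries 7 and 8 and between -0.10 and 0.08 in the other 4. Egr3 was at 1.33 and 1.11 in STEM libraries 11 and 12 and between -0.11 and 0.48 in the other 4. Fos and Egr1 were both highest in STEM library 8, and Egr3 in library 11.

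Deviations of log2 CPM from the group mean describe how the genes varied among libraries, where the genes of a library share its depth and its normalization. The pairs below were picked by their values from all pairs of the 10 genes. Junb and Egr2 had a Pearson correlation of 0.92 over 12 libraries and 0.82 over the 11 without library 6. Junb and Ier2 had 0.90 and 0.62 (Spearman's rho 0.39 and 0.38), and Fosl2 and Egr3 had 0.62 and 0.89. Several pairs rested on library 6. Egr2 and Ier2 had 0.73 and 0.15, Fos and Ier2 -0.62 and 0.24, and Fos and Junb -0.45 and 0.40. Among all other tested genes, the pattern most like that of Fos by Spearman's rho over the 12 libraries was Lactb2 (0.96, with a Pearson correlation of 0.94, and 0.93 without library 6), followed by Lrrfip1, Pcmtd2, Jrkl and Tceal7 (0.95 each). The pattern most like that of Egr1 was Slc7a2 (0.94, with a Pearson correlation of 0.81, and 0.77 without library 6), followed by Arfgap1 (0.92), 1700093K21Rik (0.91), Csnk2a2 (0.90) and Gm16580 (0.90). These are the closest of 14175 genes over few libraries and are given as a description.

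**Figure D4:**
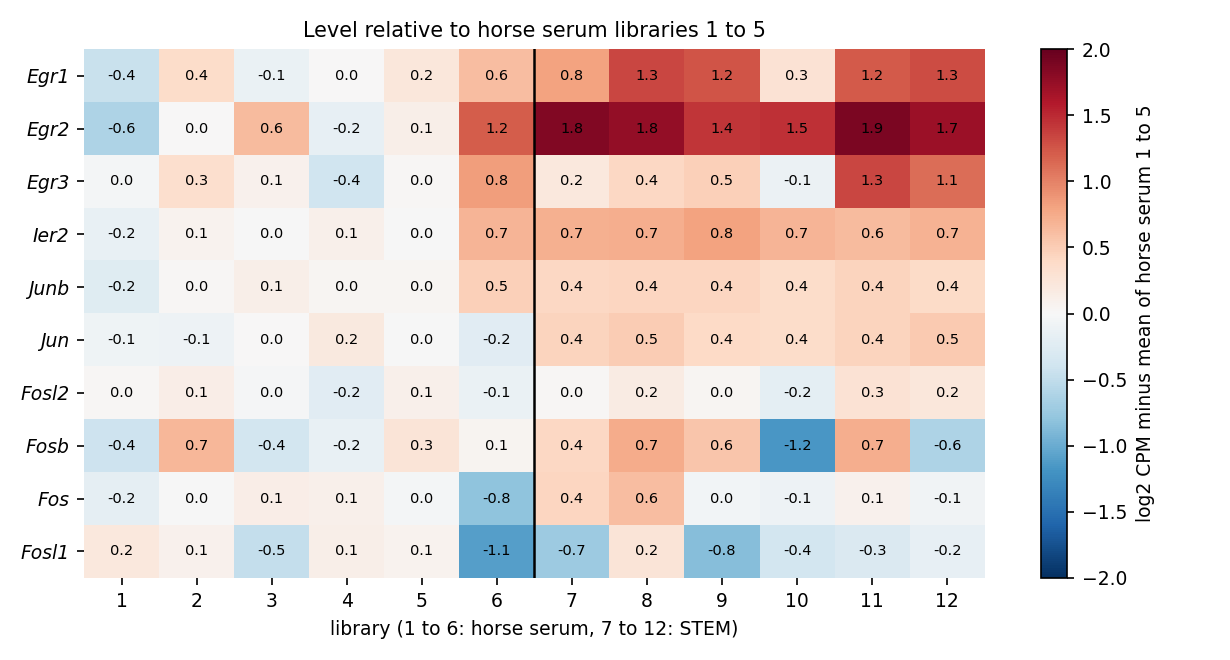
Log2 CPM of each gene (rows) in each library (columns) minus its mean over horse serum libraries 1 to 5, shown as color and number. Jun, Junb and Ier2 are evenly raised in STEM libraries 7 to 12, Fos in libraries 7 and 8 and Egr3 most in 11 and 12.

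Relatives of these genes were described in the same way. Of 9 other AP-1 family genes tested, 2 were higher, 2 lower and 5 did not pass (median log2 fold change 0.01, as over all tested genes). Atf3, a stress-induced partner of Jun, went from 4.28 ± 0.829 to 12 ± 2.73 CPM (SD, n = 6) and had a log2 fold change of 1.49 (adjusted p = 8.94e-06 in edgeR). Jund, the Jun family member expressed most steadily across cell types, rose from 137.2 ± 7.75 to 177.8 ± 12.9 CPM (log2 fold change 0.37, adjusted p = 0.000104 in edgeR). Maf and Maff, which encode large and small Maf proteins, were lower, with log2 fold changes of -0.44 and -0.75 (adjusted p = 0.000855 and 0.0429 in edgeR). Jdp2, Mafg, Mafk, Atf2 and Atf7 had log2 fold changes between -0.07 and 0.30 and did not pass. Of these, only Mafg was called higher without library 6 (0.12, adjusted p = 0.0404 in edgeR). Batf, Batf2 and Batf3 had 3 counts or fewer in every library, and Egr4 had 0 counts in all 12. Nab1 and Nab2, which encode co-repressors of Egr proteins, had log2 fold changes of 0.09 and -0.10 and did not pass. With library 6 left out, Nab1 was higher (0.15, adjusted p = 0.00855 in edgeR), and Nab2 (-0.08) did not pass.

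Of 36 other immediate early genes tested, 11 were higher, 10 lower and 15 did not pass, with a median log2 fold change of -0.05. Those with the lowest p-values were Gadd45b, a stress response gene (log2 fold change 0.57), Ier5 (0.42) and Atf3, with adjusted p of 1.92e-07, 4.67e-06 and 8.94e-06 in edgeR. Of the genes named after their values were seen, Rhob (0.64), Klf10 (0.61) and Klf4 (0.79) were higher, and Ccn1 (-0.37), Ccn2 (-0.82) and Nr4a2 (-1.27) were lower. Myc (0.12) and Nr4a1 (0.02), named likewise, did not pass. Atf3 and Maff stand in both this list and that of the AP-1 family.

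Of 14 feedback genes of the ERK pathway, 5 were lower and 9 did not pass, with a median log2 fold change of -0.27. Spry1, a receptor tyrosine kinase inhibitor, went from 38.3 ± 2.38 to 24.7 ± 3.04 CPM, Dusp4, an ERK phosphatase, from 12.9 ± 1.68 to 8.68 ± 0.808 CPM and Etv4, an ETS factor, from 6.80 ± 1.70 to 3.61 ± 0.61 CPM (adjusted p = 2.27e-05, 0.000347 and 0.00055 in edgeR). Dusp6 (-0.42) and Spred3 (-0.42), named after their values were seen, were also lower. Without library 6, 1 feedback gene was higher and 7 were lower. Ier3 and Phlda1 stand in both this list and the previous one. Of 21 kinases and factors upstream of immediate early genes, 6 were higher, 4 lower and 11 did not pass (median 0.06). Srf, which encodes serum response factor, had a log2 fold change of 0.24, Mapk3, which encodes ERK1, one of -0.34 and Creb1 one of -0.25 (adjusted p = 0.00241, 0.000105 and 0.000651 in edgeR).

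Genes known as AP-1 targets moved in both directions. Of 16 tested, 4 were higher and 8 lower, with a median log2 fold change of -0.39. Ccnd1, the cyclin D1 gene, went from 64.5 ± 12.6 to 17.5 ± 1.51 CPM (log2 fold change -1.88, adjusted p = 9.48e-08 in edgeR). The secreted protein gene Spp1 and the sphingosine kinase gene Sphk1 had log2 fold changes of -1.59 and -0.85 (adjusted p = 9.26e-08 and 6.13e-07 in edgeR). The 4 that were higher were Lif (1.4), Il6 (1.30), Fst (1.13) and Hmox1 (0.28), named after their values were seen. Without library 6, 5 were higher and 9 lower. Mmp3, Mmp10, Mmp12 and Mmp13 had 3 counts or fewer in every library. Of 10 Egr targets tested, 3 were higher, 1 was lower and 6 did not pass (median 0.21). Tgfb1 (0.69) and Id3 (0.72) were higher and F3, the tissue factor gene, was lower (-0.46), with adjusted p of 0.0033, 0.0221 and 0.0157 in edgeR. Without library 6, 7 Egr targets were higher and 2 lower, in a fit that called 26.3% of all genes tested higher and 24.5% lower. The counts without library 6 in the other lists have the same background. Genes in these lists answer to other factors too.

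**Figure D5:**
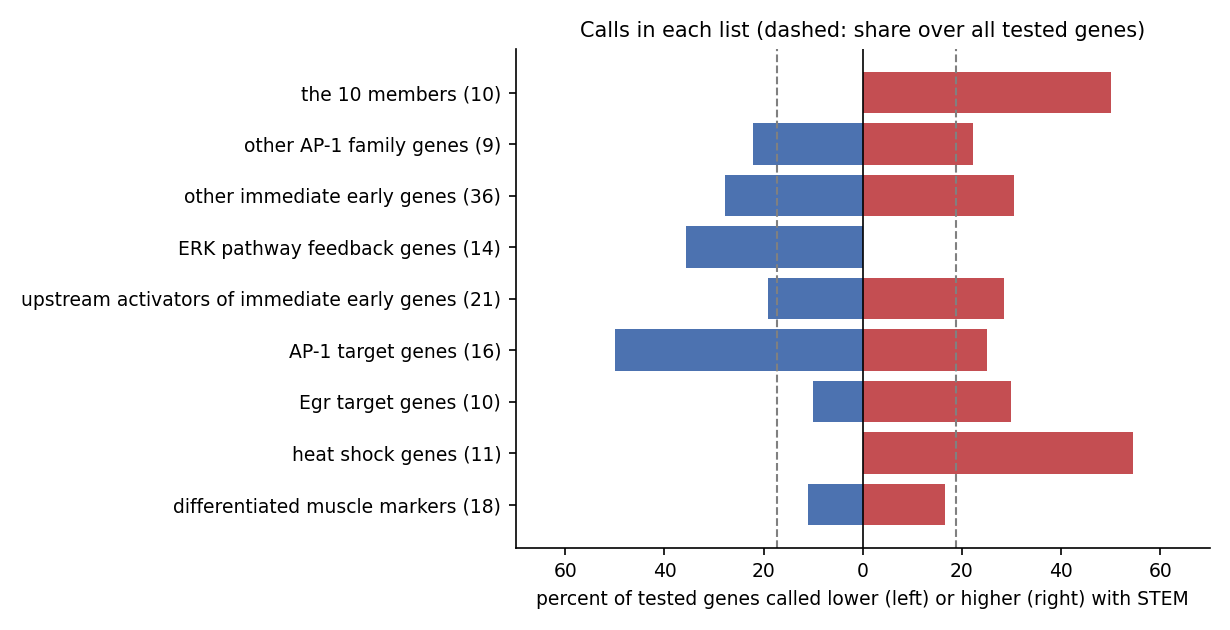
Percent of the tested genes of each list called higher (red, right) or lower (blue, left) with STEM, with the number tested in brackets. Dashed lines mark the shares over all tested genes, 18.9% higher and 17.4% lower; the 10 genes at the top have 5 calls, all to the right.

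Markers of cell state were read beside these results, and their part in the results was not tested. Of 11 heat shock genes, 6 were higher and 5 did not pass (median 0.20), among them Hspa8 (0.35), Hsph1 (0.68) and Hspb1 (0.28). Hspa1a (-0.35) and Hspa1b (-0.15), the members most sensitive to heat and named after their values were seen, did not pass, and were at -0.12 and 0.13 without library 6. Without that library, 9 of the 11 were higher. Of 18 differentiated muscle markers, all of which were expressed, 3 were higher (Myh4 1.25, Ryr1 0.51 and Actn3 0.30), 2 lower (Myog -0.29 and Myh8 -1.25) and 13 did not pass (median -0.04). Actn3 and Myh8 were named after their values were seen. Without library 6, 3 were higher and 10 lower (median -0.21). Among myoblast genes Myf5 was lower (-0.42), whereas Myod1 (0.03) and Pax7 (-0.04) did not pass and Pax3 had at most 2 counts in a library. Of the fibroblast markers, Col1a1 (0.71) and Dpt (1.10) were higher, Pdgfra (0.41) did not pass, and Thy1 and Tcf21 had 3 counts or fewer in every library. Pdgfra was at 0.67 without library 6 (adjusted p = 2.48e-06 in edgeR), and all 3 tested fibroblast markers were then higher. Control libraries had a summed level of 383.4 ± 81.9 CPM and STEM libraries one of 625.3 ± 171.9 CPM (SD, n = 6), most of it Col1a1. Macrophage and leukocyte markers summed to 4.65 ± 0.892 and 5.46 ± 0.595 CPM, most of it Cd68, while Ptprc, Adgre1 and Lyz2 had 3 counts or fewer in every library. Endothelial markers summed to 0.588 and 0.603 CPM and adipocyte markers to 0.101 and 0.0208 CPM, with Pecam1, Kdr, Adipoq, Plin1 and Lep at 3 counts or fewer in every library.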

How the data were processed

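RNA was sequenced from 12 libraries of C2C12 myotubes, 6 per group, as stranded total RNA depleted of ribosomal RNA. The authors deposited raw read counts per Ensembl gene, without normalization. The submitters' processing notes name STAR 2.7.3a, featureCounts 1.6.3, DESeq2 1.26.0 and build GRCm38; the annotation release and the strand setting of the counting are not given in the sources used here. Groups were taken from the sample labels.

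Symbols, coordinates and exon lengths came from GENCODE M21, which held 55227 of the 55487 listed genes; the others held 0.00268% of the counts. Genes were kept by filterByExpr and tested in edgeR 4.0.16 (R 4.3.3) with TMM normalization, robust quasi-likelihood fits and Benjamini-Hochberg adjustment over 14175 genes, called at 0.05. Intervals use the standard error implied by the quasi-likelihood F statistic. CPM and RPKM were computed here from the deposited counts, with a prior count of 2 for log2 CPM. Single values were compared by two-sided exact permutation tests. Libraries of a group were compared pairwise and none was a duplicate (chi-square per degree of freedom 3.29 or more). A gene with 3 counts or fewer in every library was taken as at the floor, which covers counting error only.

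The genes and lists were chosen with earlier results of these data known. The genes named were the 10 genes, their AP-1 and Egr relatives, up to 3 called genes of smallest p-value in each list, defining markers, and the 5 genes most like Fos and the 5 most like Egr1; others are marked as chosen after their values were seen. Alternatives were other normalizations and filters, DESeq2 1.42.0, limma 3.58.1 (voom, with and without sample quality weights), thinning to the lowest total, and leaving out each library.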

Additional observations from a re-analysis of the deposited data

Results flagged for a closer look

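A single library far from the rest of its group was looked for in 28 groups of 6 libraries, as a gap to the nearest library, divided by the range, above Dixon's 95% critical value, on the log2 scale. Chance alone gives such a gap in about 5% of groups. The 4 that passed were all in horse serum library 6. Not all gene lists were among these groups, and some list sums outside them also had a library apart. Genes upstream of immediate early genes summed to 1186.8 CPM in STEM library 10 and 1232.7 to 1248.0 CPM in the other STEM libraries. Egr targets summed to 4556.9 CPM in horse serum library 6 and 1897.0 to 2521.5 CPM in the other controls. For Egr4, Nab1 and Nab2 together these values were 114.3 CPM and 94 to 98.2 CPM. Fos was lowest there, with a gap of 0.68 of the range (3.18 CPM against 5.00 to 6.21 CPM in the other horse serum libraries). Ier2 was highest there, with a gap of 0.70 (59.8 CPM against 33.5 to 39.9 CPM). The summed level of the heat shock genes was highest there, with a gap of 0.64 (2369.6 CPM against 2025.9 to 2142.3 CPM). The summed level of the differentiated muscle markers was lowest there, with a gap of 0.84 (13794.9 CPM against 23811.9 to 26490.1 CPM). This library also had the highest TMM factor, 1.0707.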

How the results depend on the processing

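Jun, Junb, Egr1, Egr2 and Ier2 were higher with STEM, past the threshold, under each alternative run. Without 1 library at a time, log2 fold changes ranged from 0.45 to 0.53 for Jun, 0.26 to 0.41 for Junb, 0.84 to 1.06 for Egr1, 1.24 to 1.67 for Egr2, 0.51 to 0.71 for Ier2, 0.28 to 0.65 for Egr3, 0.19 to 0.35 for Fos, 0.14 to 0.45 for Fosb, -0.37 to -0.11 for Fosl1 and 0.08 to 0.17 for Fosl2. The number of the 10 genes called stayed at 5 in these fits, while calls over all genes ranged from 4459 to 7245, highest without horse serum library 6, and from 4648 to 7320 in the other settings. Egr3 passed in 2 settings, at 0.50 with sample quality weights in limma-voom (adjusted p = 0.0486) and at 0.73 with horse serum library 6 and STEM library 7 both left out (adjusted p = 0.0442 in edgeR), a choice made after seeing the data; the cause was not tested. Fosb was not tested with at least 10 counts required in every library or after thinning. Fosb and Fosl1 had the fewest counts, 3 to 20 and 17 to 43 per library, and the part of depth in their wide intervals was not tested. No paired analysis was possible because the groups share no replicate numbers.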

Other observations

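Csf1r, a receptor gene that marks macrophages and was named after its values were seen, did not pass the filter on low counts with all 12 libraries. Without horse serum library 6 it passed the filter and was called higher (log2 fold change 1.45, adjusted p = 0.00234 in edgeR), but it passed with counts mostly from the STEM group, so that call is given as a description only. Its level was 0.288 ± 0.198 CPM in the controls and 0.916 ± 0.314 CPM after STEM (SD, n = 6), at 1 to 30 counts per library, while Adgre1 had 0 counts in every library.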
